A study of Mus musculus with 4 samples.

Results

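H3K27me3 peaks that lay inside a gene but far from its ends were examined in erythro-myeloid progenitors (EMPs) of the mouse yolk sac. The EMPs were sorted by surface markers that include KIT and CD41. EMPs are the early blood progenitors that bud from yolk sac endothelium before hematopoietic stem cells arise. The peaks came from CUT&RUN, in which an antibody against the histone mark guides a nuclease that releases the marked DNA for sequencing. They were chosen by measured values of the library made with 15000 EMPs: chromosomes 1 to 19, a width below 2000 bp, the location category "inside" in the authors' annotated table, and a distance above 3000 bp to the nearer end of the listed gene. This gave 2196 intragenic peaks, which were 14.7% of the 14959 autosomal peaks and 19.6% of the 11231 autosomal peaks below 2000 bp. The full list held 15282 peaks. Width, location and distance chose the peaks, and they are therefore given only as a description.

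The series held 1 H3K27me3 library and 1 IgG library from 500 EMPs and the same pair from 15000 EMPs, all from C57BL/6 yolk sacs at embryonic day 10.5. The genotype label of every library names a floxed Ezh2 allele (Ezh2fl/fl) and Tie2-Cre+/+ together with the words wild type, and it was taken to mean wild-type cells. Tie2-Cre acts in endothelial cells and the blood cells that derive from them. The 500-EMP libraries had 17 PCR cycles and 76 bp reads and the 15000-EMP libraries 16 cycles and 59 bp reads, on different instruments, so cell number cannot be told apart from these. With 1 library per cell number there were no replicates and no test. Shares carry a 95% Wilson interval for counting error alone, which counts each peak as independent of its neighbours. The lists give positions with no peak heights or read counts, so depth could not be computed from them. The library from fewer cells was sequenced less deeply, and a far smaller share of its reads aligned, by the sequencing details given with the study, so depth and cell number cannot be told apart in any comparison of both lists.

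H3K27me3 is placed on nucleosomes by the Polycomb repressive complex PRC2 through its enzymes Ezh1 and Ezh2. It is known for broad domains over the CpG-rich starts of silent developmental genes, from which it can spread into gene bodies. CpG islands are stretches rich in CG dinucleotides, and they are the usual sites at which PRC2 is recruited in mammals.

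The 300 bases at the middle of 4 intragenic peaks show sequence beneath them that ranged from CpG-dense to sparse in CpGs. Sequences were read from the RefSeq copy of GRCm38 (mm10), plus strand of the assembly, 5′ to 3′, with every CG dinucleotide in capitals. A peak is called recovered where at least 1 bp of a 500-EMP peak overlapped it. The Hdnr peak is the recovered peak with the longest overlap with 500-EMP peaks in a host gene that also had a peak at its start, and the Asb18 peak is the same for a host gene without one. The Nrxn2 and Igdcc3 peaks are the recovered peaks with the most CpGs among those within 1 kb of an annotated transcript start and among those above 3 kb from any. The labels describe the whole peaks. The transcript start that the Nrxn2 peak covers lies outside its printed 300 bases.
Hdnr peak middle, chr8:57350328-57350627, host with a start peak: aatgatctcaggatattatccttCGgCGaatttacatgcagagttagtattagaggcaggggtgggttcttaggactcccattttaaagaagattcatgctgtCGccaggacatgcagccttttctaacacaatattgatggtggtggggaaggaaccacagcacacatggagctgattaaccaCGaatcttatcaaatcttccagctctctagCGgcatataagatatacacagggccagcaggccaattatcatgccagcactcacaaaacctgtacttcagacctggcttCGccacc
Asb18 peak middle, chr1:89992098-89992397, host without a start peak: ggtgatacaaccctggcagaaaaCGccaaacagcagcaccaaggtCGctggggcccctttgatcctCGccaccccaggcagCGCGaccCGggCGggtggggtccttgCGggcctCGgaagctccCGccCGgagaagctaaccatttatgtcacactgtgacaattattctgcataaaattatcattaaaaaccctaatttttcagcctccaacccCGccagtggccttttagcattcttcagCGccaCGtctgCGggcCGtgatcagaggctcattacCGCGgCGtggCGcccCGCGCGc
Nrxn2 peak middle, chr19:6428942-6429241, at a transcript start: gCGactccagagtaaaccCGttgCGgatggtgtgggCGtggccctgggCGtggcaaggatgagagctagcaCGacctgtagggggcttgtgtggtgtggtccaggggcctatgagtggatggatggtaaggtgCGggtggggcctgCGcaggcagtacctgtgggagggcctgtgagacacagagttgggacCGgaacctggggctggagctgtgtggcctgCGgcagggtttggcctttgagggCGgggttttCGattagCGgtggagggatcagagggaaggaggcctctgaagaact
Igdcc3 peak middle, chr9:65163406-65163705, far from any transcript start: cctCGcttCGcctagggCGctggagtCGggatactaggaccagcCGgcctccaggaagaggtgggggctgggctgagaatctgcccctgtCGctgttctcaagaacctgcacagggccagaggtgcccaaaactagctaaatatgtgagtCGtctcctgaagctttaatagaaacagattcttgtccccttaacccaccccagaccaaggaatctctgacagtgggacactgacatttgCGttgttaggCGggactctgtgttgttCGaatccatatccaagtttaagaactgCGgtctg

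Hdnr is a long non-coding RNA gene, and its peak held 12 CpGs over 1435 bp. The peak in Asb18, a gene of the ankyrin repeat and SOCS box family, touched a coding exon and held 68 CpGs over 1623 bp, with 23 of them in the printed 300 bases. The peak in Nrxn2, which encodes a presynaptic adhesion receptor, covered an annotated transcript start, touched a coding exon and held 105 CpGs over 1687 bp. The intronic peak in Igdcc3, an immunoglobulin superfamily gene, lay 16327 bp from the nearest transcript start and held 85 CpGs over 1713 bp.

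The 4 peaks differ in CpG content, but most intragenic peaks were CpG-poor. The median ratio of observed to expected CpGs was 0.217 (interquartile range 0.138 to 0.326), the median GC content was 48.1%, and the median number of CpGs per peak was 6. The windows of equal width 5 kb to each side of a peak were averaged per peak. These averages had a median ratio of 0.210 and a median GC content of 47.5%. The ratio was higher in the peak than in the average of its flanks for 51.2% of the 2196 peaks. Only 51 peaks (2.32%, 95% interval 1.77 to 3.04) were CpG-rich, here a GC content of at least 50% with a ratio of at least 0.6, against 140 of the 4392 flanking windows (3.19%). Among peaks below 2000 bp inside a gene but up to 3000 bp from an end, 214 of 2055 (10.4%, 9.17 to 11.8) were CpG-rich and the median ratio was 0.319. Upstream peaks of that width were close to the intragenic ones, with 2.74% CpG-rich (2.31 to 3.25) and a median ratio of 0.217. Repeat-masked sequence made up a median of 11.1% of an intragenic peak and 18.5% of the average of its flanks. Averaging both windows can by itself shift the median of a skewed measure, so these medians are not directly comparable.

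The width of the intragenic peaks ran from 171 bp, the smallest in the list, to 1988 bp, with a median of 454 bp (interquartile range 274 to 850), and 97 peaks (4.42%) had the smallest width. Together they covered 1.38 Mb. The distance to the nearer gene end ran from 3002 to 786170 bp, with a median of 12636 bp. Just inside the distance limit lay peaks in Rbm46 (3002 bp), 2810459M11Rik (3008 bp) and Syt13 (3009 bp). Just outside it lay peaks in Krt77 (2997 bp), Meioc (2995 bp) and 4930578I06Rik (2994 bp). Just inside the width limit were peaks in Hdac9 (1988 bp), Prdm6 (1987 bp) and Slc35f3 (1986 bp), and just outside it were peaks in Dlg5 (2000 bp), Fa2h (2001 bp) and Grm4 (2003 bp).

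The label "inside a gene" was checked against the GENCODE vM21 gene of the same identifier. Of the 2196 peaks, 2097 (95.5%) lay in that gene, and 2086 of these were above 3000 bp from both of its ends. A further 82 lay outside the gene, 15 carried the identifier of a gene other than the listed symbol, and 2 had no matched gene. Gbp10 accounted for 16 of these 99 peaks, 4930511A08Rik for 13, Raet1c for 11 and Arfip1 for 7. 4930511A08Rik is a long non-coding RNA gene whose peaks carried the identifier of Magi1, the gene that surrounds it. Host start, position and exon or intron are given below only for the 2097 peaks in 912 genes. Among them, 1709 (81.5%) lay wholly in introns, 268 (12.8%) touched a coding exon and 120 (5.72%) touched an exon without coding sequence there, and 74 overlapped another protein-coding gene.

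Starts of shorter or other transcripts can lie deep inside a gene. An annotated transcript start lay within 1 kb of 414 intragenic peaks (18.9%, 17.3 to 20.5), and 137 peaks (6.24%) covered one. Among all autosomal peaks below 2000 bp the share within 1 kb was 34.5%, and it was 28.8% for upstream peaks. The distance limit had left out peaks at the start of the listed gene itself, so nothing is read from the lower share. Within 3000 bp of a transcript start lay 35.1% of the intragenic peaks.

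The intragenic peaks fell in 932 listed host genes, and a few genes held many of them. A single peak was found in 466 hosts, 237 hosts had 2 peaks, 200 had 3 to 9, and 29 had 10 or more. These 29 hosts held 393 of the 2196 peaks (17.9%). The peaks also lay close to other peaks: 1827 (83.2%) had another 15000-EMP peak within 3 kb, and 761 (34.7%) had one of 2000 bp or more there. The corresponding shares over all autosomal peaks below 2000 bp were 82.2% and 31.9%.

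**Figure D1:**
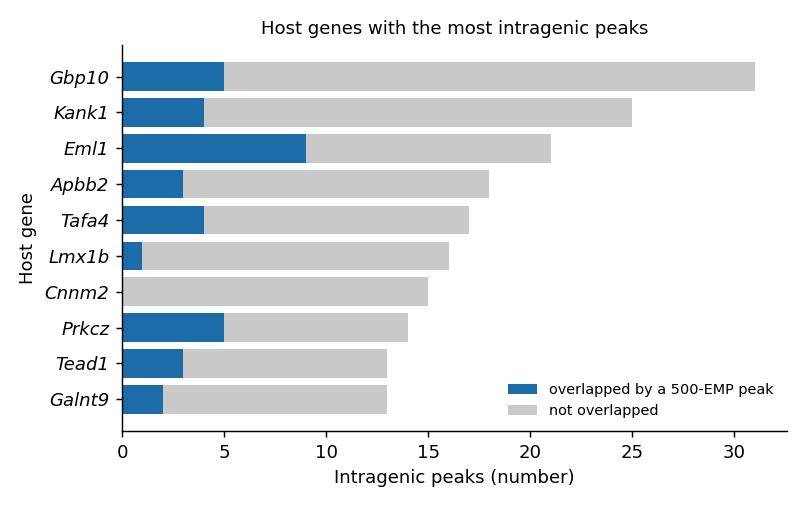
Number of intragenic peaks in the 10 host genes with the most of them, split by overlap with a 500-EMP peak (blue) or none (grey). Gbp10 had the most with 31, Eml1 had the most overlapped peaks with 9 of 21, and Cnnm2 had 0 of 15.

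Among the 10 hosts with the most intragenic peaks, the peaks formed runs that lay mostly along introns, except in Gbp10. There 16 of the 31 listed peaks lay outside the GENCODE gene and have no exon or intron assigned. Kank1, which encodes an ankyrin-repeat protein of the cell cortex and cytoskeleton, had 25 peaks, all intronic, at 71586 to 132757 bp from the start of the 198 kb gene, with widths of 171 to 1907 bp. Its start carried a peak of 4136 bp, and 4 of the 25 peaks were overlapped by a 500-EMP peak. Eml1, which encodes a microtubule-associated protein, had 21 peaks at 39190 to 91358 bp from its start, 9 of them recovered with 500 EMPs. No 15000-EMP peak lay within 1 kb of the Eml1 gene start, but 6 of its 21 peaks lay within 1 kb of another annotated transcript start. These counts come from 1 library of each cell number.

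Apbb2, which encodes an adaptor of the amyloid precursor protein, had 18 peaks, of which 17 lay at 44697 to 100779 bp from its start and the other at 3399 bp. The 3 recovered peaks were next to each other near the far end of this run, at 90044, 92345 and 94821 bp. Tafa4, a gene for a small secreted protein, had 17 peaks, of which 4 were recovered. Lmx1b, a LIM homeodomain transcription factor gene, had 16 peaks between 18644 and 71680 bp from a start that carried a peak of 16077 bp. Only 1 of the 16 was recovered, by an overlap of 29 bp, although a 500-EMP peak lay at the gene start.

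Prkcz, which encodes an atypical protein kinase C, had 14 peaks with 5 recovered. Tead1, a transcription factor gene of the Hippo pathway, and Galnt9, a glycosyltransferase gene, had 13 each, with 3 and 2 recovered. Cnnm2, a gene involved in magnesium transport, had 15 intronic peaks of 171 to 731 bp, and 0 were recovered. No peak of 2000 bp or more lay within 3 kb of any of the 15, and the Cnnm2 start had a peak with 15000 EMPs (2931 bp) but not with 500.

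Gbp10, a gene of the interferon-inducible guanylate-binding proteins, was listed with the most peaks, 31 between chr5:105217934 and chr5:105289378, and 5 of them were recovered. The GENCODE gene spans chr5:105215699-105239533, and 15 of the 31 peaks lay within it. All 31 overlapped another protein-coding gene model. Gbp9 of the same family had a further 10 peaks, with 0 recovered. These genes are closely related copies in a cluster, and the mapping command given with the study has no filter on reads that fit several copies, so the assignment of these peaks to single genes is uncertain.

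The first question on the hosts was whether they also carried H3K27me3 at their start. Of the 912 host genes, 624 (68.4%, 65.3 to 71.4) had a 15000-EMP peak of any width within 1 kb of the gene start, and 288 did not. Among all protein-coding autosomal genes the share was 15.7%, and it was 16.7% among the 16151 genes longer than 6 kb. In 461 of the 624 hosts (73.9%) the start peak was 2000 bp or wider, and 406 (65.1%) also had a 500-EMP peak at the start. When a peak at any annotated transcript start of the gene was counted, 84.2% of hosts had one. When the peak had to cover the gene start, 41.7% had one. Intragenic peaks themselves were not left out of these counts. Of the 2097 placed peaks, 2086 were above 3000 bp from both gene ends, so few could count at the start of their own gene. At any transcript start more could, because 351 lay within 1 kb of a transcript start of their own host. The 84.2% can thus include hosts that count through the peak that made them hosts.

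Seen from the genes, an intragenic peak was found in 5.29% of the protein-coding genes longer than 6 kb. The share was 22.2% (20.7 to 23.8) of the 2690 genes with a start peak and 1.92% (1.70 to 2.16) of the 13461 genes without one. Longer genes have more room for such a peak, so the shares were also taken by gene length. For genes of 6 to 30 kb they were 15.5% with a start peak and 1.03% without, for 30 to 100 kb 27.7% and 2.39%, and for 100 to 300 kb 28.0% and 3.88%. Above 300 kb they were 21.2% (16.8 to 26.5) and 10.4% (7.33 to 14.7). The gap between both kinds of gene was thus narrower among the longest genes. Per Mb of gene interior, which leaves out 3 kb at each end, genes with a start peak held 29.6 intragenic peaks in the shortest class and 0.917 in the longest, against 1.84 and 0.341 in genes without a start peak.

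**Figure D2:**
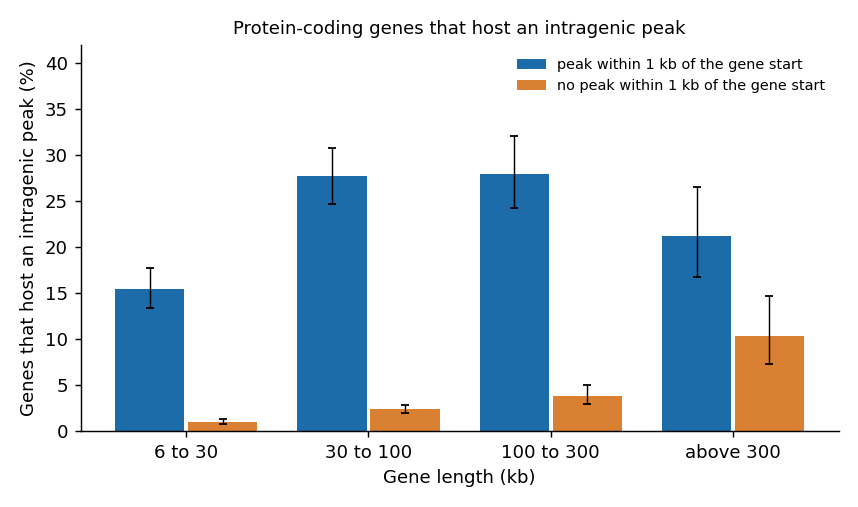
Share of autosomal protein-coding genes that hosted at least 1 intragenic peak, by gene length in kb, for genes with (blue) and without (orange) a 15000-EMP peak within 1 kb of the gene start. Bars are shares and lines 95% Wilson intervals, and the shares run from 15.5% to 28.0% with a start peak and from 1.03% to 10.4% without.

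The annotated table pairs each intragenic peak with 1 gene, and this bears on which peaks count as intragenic. When the same width and distance limits were applied to GENCODE protein-coding genes, 3450 peaks qualified, of which 3335 lay in exactly 1 gene. Of these 3335, 1983 were among the intragenic peaks above. The other 1352 lay inside a gene but were mostly listed upstream (53.3%) or downstream (38.2%) of another one. With this assignment 27.1% of genes longer than 6 kb with a start peak and 3.25% of those without one were hosts. Above 300 kb the shares were 33.0% and 28.0%, closer than by the table.

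The pairing also bears on the position along the gene. By the table, 1572 of the 2097 placed peaks (75.0%) were nearer to the start of the host than to its end, and 110 (5.25%) lay in the last 25% of its length. By the genome annotation, 57.3% of the 3335 peaks were nearer to the start and 17.4% lay in the last 25%. The 1352 peaks that the table listed elsewhere were nearer to the start in 31.1% of cases. In genes with a start peak 61.3% of the peaks were nearer to the start, and in genes without one 50.5% were, both by the genome annotation. Most of the skew toward the start seen by the table was therefore absent when location was taken from the genome annotation.

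**Figure D3:**
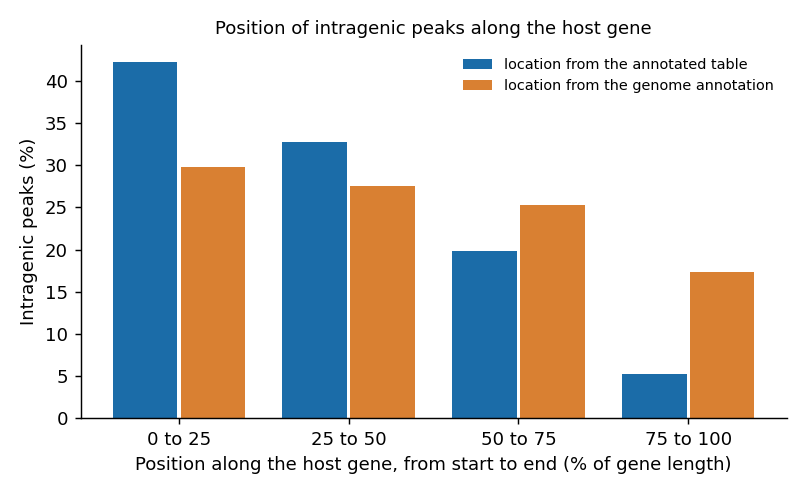
Share of intragenic peaks in each 25% of the length of the host gene, from its start to its end, with location from the authors' annotated table (blue, 2097 peaks) or from GENCODE protein-coding genes (orange, 3335 peaks). The first 25% of the gene holds 42.2% of the peaks by the table and 29.8% by the genome annotation, and the last 5.25% and 17.4%.

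The 288 hosts without a start peak had a median length of 46.9 kb, against 56.8 kb in hosts with one, and the median width of their intragenic peaks was 463 bp against 450 bp. In 155 of the 288 (53.8%) the intragenic peaks were the only 15000-EMP peaks that touched the gene, and 84 (29.2%) held a peak of 2000 bp or more. Only 2 of the 288, Gbp9 and the carboxypeptidase gene Cpa5 (named after its values were seen), had a 500-EMP peak at the start.

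After Eml1, the hosts without a start peak that held the most intragenic peaks were Lifr, Gbp9, Lncppara and Plg. Lifr, the receptor for leukemia inhibitory factor, had 10 peaks at 43771 to 101815 bp from its start, with 1 recovered by an overlap of 137 bp. Lncppara, a non-coding transcript, had 9 peaks at 6249 to 22602 bp, with 1 recovered. Plg, which encodes plasminogen, had 9 peaks within a stretch of 8651 to 17956 bp from its start, 3 of them on coding exons, with 0 recovered. Of the 5 peaks farthest from a gene end, 3 were also in a host without a start peak: Dlg2, a postsynaptic scaffold gene of 1973 kb, had peaks 786170, 785354 and 613228 bp from its nearer end, and 0 of its 4 peaks were recovered. The Dlg2 peak at 613228 bp covered an annotated transcript start, and 2 of the 4 lay within 1 kb of one. The other 2 of the 5 farthest peaks were listed for Dpp10 at 725421 and 724541 bp. They lay outside the GENCODE gene and within 1333 and 453 bp of another transcript start.

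The next question was how many intragenic peaks were found again with 500 EMPs, in a list of 10223 peaks that had no part in the choice. At least 1 bp of a 500-EMP peak overlapped 305 of the 2196 peaks (13.9%, 12.5 to 15.4). The share was 32.4% over all autosomal peaks and 16.0% over those below 2000 bp. It was 18.1% (16.5 to 19.8) for peaks below 2000 bp that lay inside a gene up to 3000 bp from an end, and 15.5% (14.4 to 16.5) for upstream peaks. The overlaps were short, with a median of 254 bp and a median of 26.7% of the intragenic peak, and at least 50% was covered in 63 peaks (2.87%). Of all bases in intragenic peaks, 6.72% were covered, against 7.55% over all autosomal peaks below 2000 bp.

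Recovery followed peak width, and at equal width it was close to that of other peaks. For intragenic peaks of 171 to 299 bp it was 3.92% (2.67 to 5.73), for 300 to 499 bp 6.28% (4.55 to 8.61), for 500 to 999 bp 15.3% (12.6 to 18.5) and for 1000 to 1999 bp 37.1% (32.6 to 41.8). Peaks up to 3000 bp from a gene end had 3.99%, 6.52%, 17.0% and 36.6% in the same classes, and the intervals overlapped in each class. The share of bases covered by 500-EMP peaks was 2.32% in the narrowest class and 9.67% in the widest. The recovered peaks had a median width of 1051 bp, and the others 407 bp.

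**Figure D4:**
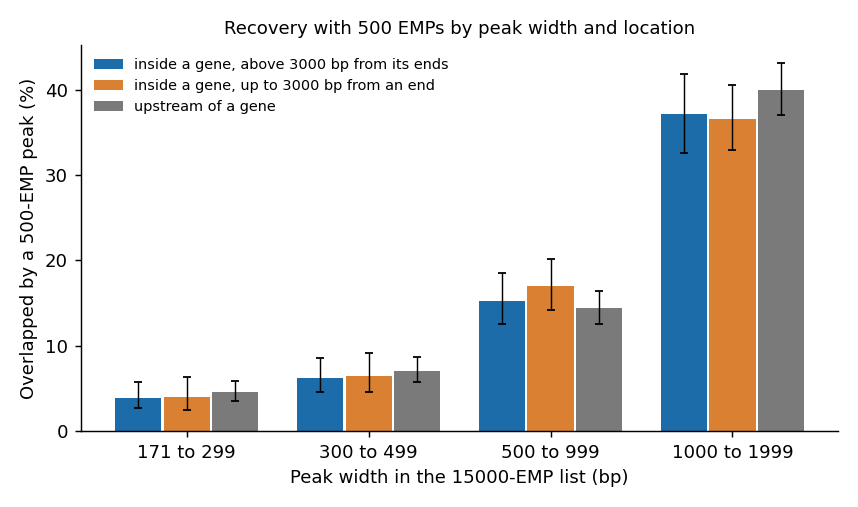
Share of 15000-EMP peaks overlapped by at least 1 bp of a 500-EMP peak, by peak width in bp, for intragenic peaks above 3000 bp from the gene ends (blue), peaks inside a gene up to 3000 bp from an end (orange) and upstream peaks (grey). Bars are shares and lines 95% Wilson intervals, and the intragenic peaks rise from 3.92% to 37.1% with overlapping intervals between the 3 locations in each class.

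A wide neighbour went with more frequent recovery. Peaks with a 15000-EMP peak of 2000 bp or more within 3 kb were recovered in 20.2% (17.5 to 23.2) of 761 cases, those with narrower neighbours alone in 12.7% (10.8 to 14.8) of 1066, and those with no neighbour within 3 kb in 4.34% (2.69 to 6.93) of 369. Median widths in these sets were 479, 466 and 396 bp. Among peaks of 1000 to 1999 bp, 51.6% (43.9 to 59.1) with a wide neighbour and 28.1% (23.0 to 33.8) without one were recovered. Among peaks of 500 to 999 bp the shares were 22.4% (17.3 to 28.6) and 11.4% (8.60 to 15.1). Among peaks of 300 to 499 bp they were 8.65% and 5.11%, and among those of 171 to 299 bp 4.29% and 3.75%, with overlapping intervals in both classes. Neighbouring peaks share their host gene, so these are not independent observations.

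**Figure D5:**
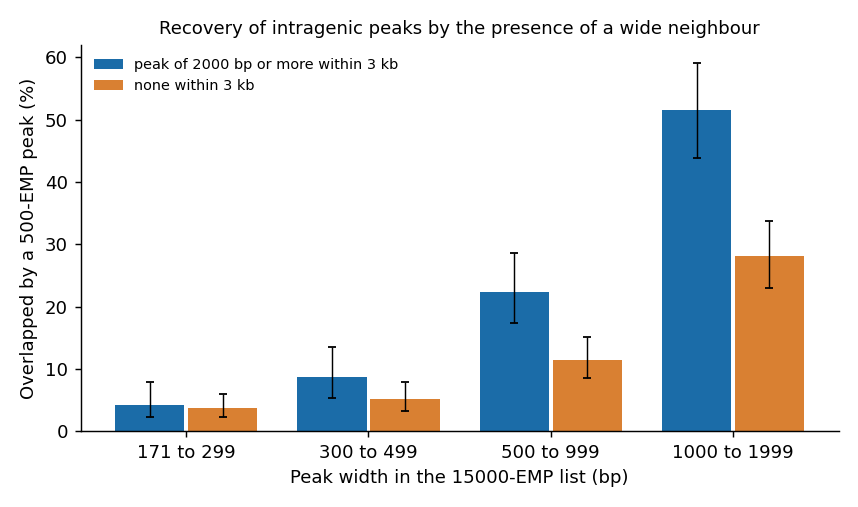
Share of intragenic peaks overlapped by a 500-EMP peak, by peak width in bp, with (blue) and without (orange) another 15000-EMP peak of 2000 bp or more within 3 kb. Bars are shares and lines 95% Wilson intervals, and the intervals are separate for 500 to 999 bp (22.4% and 11.4%) and for 1000 to 1999 bp (51.6% and 28.1%).

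Recovery with and without a start peak in the host was compared directly. It was 14.3% (12.7 to 16.2) for 1513 peaks in hosts with a start peak and 12.3% (9.91 to 15.2) for 584 peaks in hosts without one. The difference was 2.01 percentage points, with an interval from -1.35 to 5.07, which includes 0. With a recovered peak taken as one within 1 kb of a 500-EMP peak, the shares were 29.8% and 24.8%, and the difference of 4.98 points had an interval from 0.682 to 9.06. With start peaks up to 3000 bp from the gene start it was 0.421 points (-3.28 to 3.70). For peaks of 500 to 999 bp the shares were 17.0% (13.7 to 21.0) and 10.3% (6.33 to 16.3), and for 1000 to 1999 bp 39.4% (33.8 to 45.2) and 32.3% (24.7 to 40.9). In the 2 narrower classes the share was higher without a start peak, at 4.12% against 3.67% and 6.94% against 5.84%. By the genome annotation the shares were 14.7% and 14.2%. Where the host start carried a 500-EMP peak, 15.9% (13.8 to 18.2) of 1062 intragenic peaks were recovered, against 11.6% (9.78 to 13.7) of 1035 where it did not.

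Other properties were set beside recovery in the same way. Peaks within 1 kb of a transcript start were recovered in 20.3% (16.7 to 24.4) and the rest in 12.4% (11.0 to 14.0), with median widths of 618 and 431 bp. Within the class of 1000 to 1999 bp these shares were 41.5% and 35.0%, with overlapping intervals. Peaks on coding exons were recovered in 18.7% and intronic peaks in 12.5%, with median widths of 774 and 419 bp. CpG-rich peaks were recovered in 7 of 51 cases (13.7%, 6.81 to 25.7), against 13.9% of the others. Distance to the gene end showed no order, with 13.1% at 3001 to 5000 bp, 13.4% up to 10000 bp, 15.8% up to 30000 bp and 12.7% beyond.

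The 5 longest overlaps with 500-EMP peaks lay in Hdnr (1239 of 1435 bp), Cdkn2a (1170 of 1591 bp), Asb18 (1125 of 1623 bp), Tfap2b (964 of 1597 bp) and Wnt4 (958 of 1326 bp). Cdkn2a encodes cell cycle inhibitors and is a well-known Polycomb target, Tfap2b encodes a transcription factor of the AP-2 family, and Wnt4 encodes a secreted Wnt ligand. All but the Asb18 peak had a wide 15000-EMP peak within 3 kb. Of the 1891 peaks that were not recovered, 323 (17.1%) lay within 1 kb of a 500-EMP peak and 1192 (63.0%) within 10 kb. Of the 9432 autosomal peaks below 2000 bp that were not recovered, 16.9% lay within 1 kb and 53.5% within 10 kb, so the share within 1 kb was close to that background.

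Host genes were also read through lists of developmental, neural, endothelial and blood genes. In the lists of developmental and neural genes 15.8% to 34.6% of the autosomal members were hosts, against 5.29% of protein-coding genes longer than 6 kb, but these lists also had start peaks in 60.0% to 82.3% of their members and median gene lengths of 24.7 to 713 kb. In genes with a start peak the share of hosts was 22.2% in general. The share was 34.6% for Wnt pathway genes (18 of 52, 23.2 to 48.2), which had a median length of 24.7 kb, the shortest of these 8 lists, and 33.9% for developmental transcription factors (21 of 62, 23.3 to 46.3), with 107 kb. The other lists lay at 32.7% for axon guidance, 31.0% for voltage-gated ion channels, 24.4% for glutamate, GABA and glycine receptors, 22.5% for cadherins, 22.2% for synaptic adhesion and scaffold genes and 15.8% for collagens. With hosts taken from the genome annotation, a choice made after the data were seen, the shares were higher and their order was different. Developmental transcription factors had 31 hosts of 62. The share was 42.9% for ion channels, 42.2% for synaptic genes, 41.5% for receptors, 40.8% for axon guidance, 38.5% for the Wnt pathway and 23.7% for collagens, and 12 of 40 cadherins were hosts. By that rule 7.22% of all protein-coding genes longer than 6 kb and 27.1% of those with a start peak were hosts.

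Among Wnt pathway genes, Wnt3a, a ligand gene, had 7 intragenic peaks with 0 recovered, Lef1, a transcription factor of the pathway, had 6 with 1 recovered, and Wnt9a, another ligand gene, had 5 with 1 recovered. All of them had a start peak in both lists of peaks. Of the 18 Wnt hosts 15 had a start peak. Of the 21 transcription factor hosts 20 did: Lmx1b is described above, Pax7 had 10 intragenic peaks with 4 recovered, and Pax3 had 5 with 0 recovered beside a start peak of 33527 bp.

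Among neural genes, Shank1, a postsynaptic scaffold gene, had 10 peaks with 5 recovered, Nrxn2 had 5 with 3 recovered, and Dlg2 had 4 with 0. The voltage-gated sodium channel gene Scn8a had 12 with 3 recovered, Kcnh2, a potassium channel gene, had 3 with 0, and Cacna2d2, a calcium channel subunit gene, had 2 with 0. The kainate receptor genes Grik3 and Grik4 had 10 and 7, with 1 and 0 recovered, and Grin2c, an NMDA receptor subunit gene, had 6 with 3 recovered. Sema6a, a semaphorin, had 8 with 2 recovered, and Epha8, an ephrin receptor, and Sema5b had 3 each with 1 recovered. Among cadherins Fat1 and Cdh22 had 12 each with 1 recovered, and Celsr3 had 4 with 0. Among collagens Col24a1 had 10 with 2 recovered, and Col27a1 and Col2a1 had 2 each with 0. Dlg2 had no start peak with 15000 EMPs, and the other genes named in this paragraph had one. Over the whole lists, 3 of the 10 synaptic hosts, 2 of the 16 axon guidance hosts, 2 of the 10 receptor hosts, 1 of the 13 ion channel hosts, 1 of the 9 cadherin hosts and 0 of the 6 collagen hosts had no start peak.

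Blood and endothelial genes were hosts at shares whose intervals included the 5.29% of protein-coding genes longer than 6 kb. Of 35 autosomal hematopoietic genes 0 were hosts, with an interval up to 9.89%, and 2 had a start peak with 15000 EMPs, which were Gfi1 (7489 bp wide) and Gata2 (2640 bp), named here after their values were seen. Of 39 autosomal endothelial genes 17 had a start peak and 2 were hosts (5.13%, 1.42 to 16.9), close to the share of 5.29% over protein-coding genes longer than 6 kb. Of the 17 with a start peak 1 was a host, against 22.2% of protein-coding genes longer than 6 kb with a start peak. Stab2, a scavenger receptor of sinusoidal endothelium, had no start peak and 4 intronic peaks of 206 to 761 bp, and Flt1, a receptor for vascular endothelial growth factor, had a start peak of 4720 bp and 1 intronic peak of 256 bp. Of these 5 peaks 0 were recovered. By the genome annotation 4 of the 39 endothelial and 0 of the 35 hematopoietic genes were hosts. Of 20 autosomal housekeeping genes 0 were hosts and 0 had a start peak, but their median length was 6.06 kb, which leaves little room for a peak above 3000 bp from both ends.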

How the data were processed

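H3K27me3 CUT&RUN peaks of E10.5 yolk sac EMPs were analysed. The authors aligned reads to GRCm38 (mm10) with Bowtie2 2.2.1 and called broad peaks with MACS2 2.1.2 against IgG, at P values of 0.05 (15000 EMPs) and 0.01 (500 EMPs). Their listing of the commands names the libraries the other way round, and each deposited list was assigned by its label. By the methods, the more lenient threshold and the larger cell number fall on the same library. The deposited files give peak positions, and an annotated table made with ChIPpeakAnno adds a listed gene, a location and a distance in bp to each peak, with no heights or counts, so depth was not computed here. The sequencing details given with the study state fewer reads and a far lower alignment rate for the library from fewer cells. Ends in the annotated table were reduced by 1 bp to fit the peak list. The IgG libraries were not analysed here.

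Members and gene lists were chosen with earlier results of these data known. Overlap of at least 1 bp counted as recovery. Gene starts, exons and transcript starts came from GENCODE vM21 and bases and repeat masking from RefSeq GRCm38.p6. A start peak was any 15000-EMP peak, intragenic peaks included, within 1000 bp of the gene start. Analysis used Python 3.11.15 with pandas 2.3.3 and scipy 1.17.1, and the overlap code was tested on simulated data. The hosts named were the 10 with the most peaks (ties by number recovered, then total width), the 5 without a start peak with the most, all hosts of the endothelial and hematopoietic lists, and up to 3 of each other list. The peaks named were the 5 farthest from a gene end, the 5 with the longest overlap, and 3 on each side of each limit. One sequence that the rule for printed sequences picked is not reported here. The alternatives are given in the closing section.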

Additional observations from a re-analysis of the deposited data

Results flagged for a closer look

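Chromosome X was left out of the comparisons. There, 36 peaks of the 15000-EMP list in 14 host genes met the same limits on width, location and distance, with a median width of 512 bp, and 5 of them were overlapped by a 500-EMP peak. They are listed because they lie outside the chromosomes that were compared, and IgG peaks were not analysed here.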

How the results depend on the processing

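Of 25 alternative settings, 8 kept the value within its counting interval (or, for the number of peaks, within 1.5 times) and 17 moved it, and 0 turned a direction. Most of the results are shares or counts, which have no direction to turn. The width classes, in which the difference in recovery by start peak changed sign, were not among these settings. The share recovered was 2.87% when at least 50% of the peak had to be covered, 28.6% within 1 kb of a 500-EMP peak, and 10.9% without the narrowest 500-EMP peaks. The number of peaks was 1254 above 10000 bp from a gene end, 3450 with GENCODE protein-coding gene ends, and 747 when peaks within 3 kb were joined first. The share of hosts with a start peak was 73.0% within 3000 bp, 41.7% when the start was covered, 84.2% at any annotated transcript start, 41.8% by the table's own start category, and 62.5% for hosts by the genome annotation. At any annotated transcript start, the intragenic peaks themselves could count. The share near a transcript start was 6.24% when covered, 35.1% within 3000 bp and 11.2% for protein-coding transcripts. The median CpG ratio was 0.209 in the central 300 bp. Of 457 genes in all lists, 23.0% were hosts, and 12.5% were when their peaks had to lie above 10000 bp from a gene end and 32.6% by the genome annotation. The settings on hosts by the genome annotation, on placed peaks and on list genes above 10000 bp were chosen after seeing the data. The number of peaks, and which genes count as hosts, thus rest on the gene model and on the joining of peaks. No paired analysis was possible because each group had 1 library. The files hold no peak heights, and the 500-EMP library had fewer reads, a far lower alignment rate and the stricter threshold, so a peak missing there cannot be told apart from one missed for lack of reads.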
